A study of Homo sapiens with 4 samples.

Results

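The skipped exons of the ZNF genes were examined in HEK293T cells, a human embryonic kidney line, after depletion of the small nucleolar RNA SNORD89. The members were chosen by symbol and depth: every skipped exon event of a gene whose symbol is ZNF followed by a digit, with a mean of at least 20 junction reads over the 4 libraries. A junction read is a read that crosses a splice junction, and an event is a trio of exons whose middle exon is either included or skipped. Of 54503 events with this depth, 765 were ZNF events, and they covered 624 exons under 241 gene symbols. At any depth the table held 1215 ZNF events in 329 genes, so that 450 events fell under the minimum. The minimum kept 63.0% of ZNF events and 83.1% of all 65601 events. The lowest mean inside the rule was 20 reads and the highest outside it was 19.75 reads.

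The libraries were polyA RNA from 2 cultures treated with an antisense oligonucleotide (ASO) against SNORD89 and 2 labelled as having no treatment. The ASO was a gapmer, a strand with a DNA core that directs cleavage of the RNA it pairs with. It was used at 70 nM, and RNA was taken 48 hours after transfection. All samples carry the same transfection protocol in their labels, which name no control ASO and do not say whether the untreated cells received the transfection reagent. The deposited table sets a first set of 2 libraries against a second set of 2, and neither its header nor the labels say which set had the ASO. Directions are therefore given only as first set against second set, and libraries are numbered by their place in the table. The labels call the replicates biological, and p-values measure only the spread between these samples. Exact permutation of 2 against 2 libraries cannot give a p under 0.333, so none was run.

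ZNF genes mostly encode DNA-binding proteins with arrays of C2H2 zinc fingers, each finger a short fold held together by a zinc ion. Many of them also carry a KRAB domain near the start of the protein, whose A box binds the co-repressor TRIM28 and whose B box adds to that binding. TRIM28 in turn brings the histone methyltransferase SETDB1 and heterochromatin proteins to the bound DNA, which in many cases is a transposable element. The A box and the B box commonly lie in short exons of their own, and the whole finger array commonly lies in the long last exon. A skipped exon event upstream of the last exon can therefore touch the KRAB domain, the reading frame or the 5′ UTR without touching the fingers. Of the 229 symbols matched to a coding transcript, 213 had at least 2 finger patterns, with a median of 9 and a maximum of 31. The symbol rule also takes in genes of other kinds: ZNF259 is now named ZPR1, and 16 events lay in pseudogenes. Chromosome 19, where clusters of these genes lie, held 24.1% of the ZNF events (184 events in 84 genes) and 6.53% of the events of other genes.

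ZNF exons had 1 preferred length. Of the 624 tested ZNF exons, 65 (10.4%) were exactly 127 nt long, against 253 of 42483 exons of other genes (0.596%). The next most frequent length was 96 nt, with 20 ZNF exons (3.21%) against 1.02% of the others, followed by 93 nt with 13 (2.08%) against 0.982%. The medians were close, at 122 nt for ZNF exons and 118 nt for the others, so the distributions differed most at single lengths. A length that is a multiple of 3 was found for 35.1% of ZNF exons and 40.4% of the others.

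**Figure D1:**
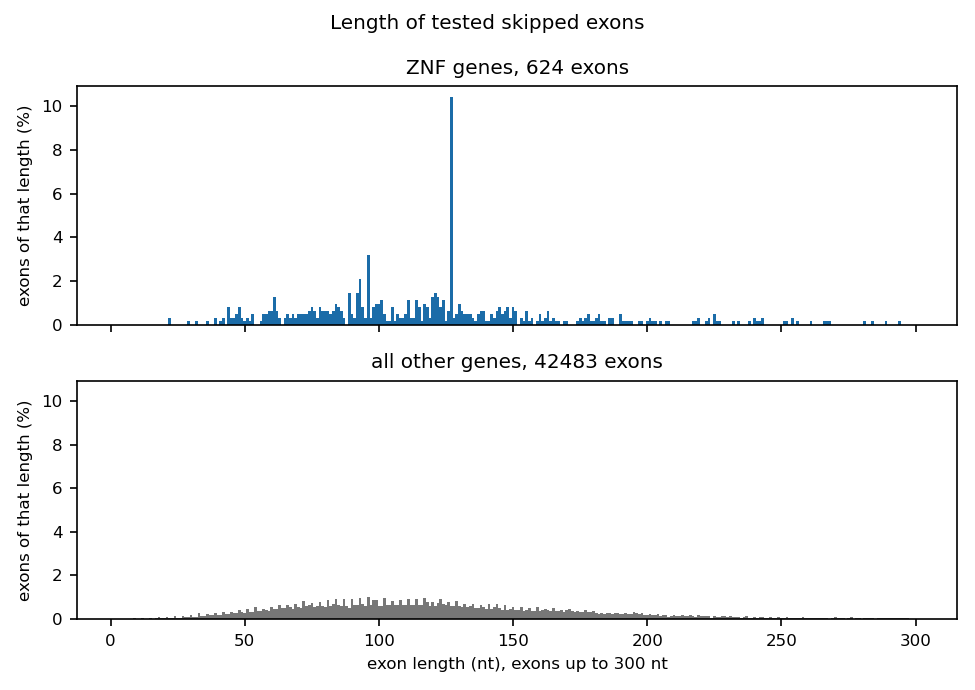
Share of tested skipped exons (y axis, percent) at each exon length (x axis, nt, up to 300 nt) for ZNF genes (top) and for all other genes (bottom), on the same scale. The ZNF exons show a single tall bar at 127 nt, 10.4% of them, where the other genes have 0.596%.

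Most coding ZNF exons of 127 nt were KRAB A box exons. A pattern of 8 residues was searched in translated exons: phenylalanine, any residue, aspartate, valine, any 3 residues and phenylalanine, which stands at the start of the A box. It was found in 62 ZNF exons of 59 genes, or 18.9% of the 323 coding ZNF exons that could be translated. Among 30425 coding exons of other genes it was found in 13 (0.0427%), in 12 genes that included the related HKR1, KRBOX4, ZFP1 and ZFP30. Of the 58 coding ZNF exons of 127 nt, 51 held the pattern (87.9%), against 6 of 196 coding exons of this length in other genes. All 51 began at the same place in the codon, between codons.

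The 127 nt A box exons of the ZNF genes with a called difference in inclusion (below) are printed here to show how alike they are, 5′ to 3′ on the gene's strand, from the GENCODE release 29 transcripts. The capitals mark the 24 bases that encode the A box pattern.
ZNF92: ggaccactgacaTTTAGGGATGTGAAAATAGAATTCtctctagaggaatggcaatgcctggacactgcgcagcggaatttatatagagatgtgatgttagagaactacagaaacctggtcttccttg
ZNF678: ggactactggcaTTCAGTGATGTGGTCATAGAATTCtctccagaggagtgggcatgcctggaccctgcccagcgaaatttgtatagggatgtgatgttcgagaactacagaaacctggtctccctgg
ZNF695: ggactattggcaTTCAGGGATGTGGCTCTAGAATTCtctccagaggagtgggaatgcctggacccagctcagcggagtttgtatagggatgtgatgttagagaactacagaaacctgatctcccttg
ZNF782: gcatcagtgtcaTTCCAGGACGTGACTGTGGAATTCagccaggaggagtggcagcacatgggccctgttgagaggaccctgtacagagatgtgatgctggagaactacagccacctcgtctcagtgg
ZNF274: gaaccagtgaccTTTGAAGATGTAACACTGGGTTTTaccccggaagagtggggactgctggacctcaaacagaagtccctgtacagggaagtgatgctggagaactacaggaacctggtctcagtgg
ZNF586: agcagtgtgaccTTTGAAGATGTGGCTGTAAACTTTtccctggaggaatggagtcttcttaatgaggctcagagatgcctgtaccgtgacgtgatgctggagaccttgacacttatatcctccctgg
The exons of ZNF678 and ZNF695 were the most alike of these, with 114 of 127 bases the same (89.8%). ZNF92 shared 108 bases (85.0%) with each of them. The exons of ZNF586 and ZNF92 were the least alike, with 69 bases the same (54.3%). Over all 1275 pairs of the 51 exons, the median identity was 66.1%, with a range from 46.5% to 98.4%. For 190 exons of 127 nt from other genes without the pattern, the median was 26.0%. Reads from the most alike exons can be assigned to the wrong gene, and how the authors treated reads with several matches is not given in the sources used here.

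The 96 nt exon that follows in ZNF92 is printed for its length class, with no capitals since no pattern was searched in it.
ZNF92 next exon: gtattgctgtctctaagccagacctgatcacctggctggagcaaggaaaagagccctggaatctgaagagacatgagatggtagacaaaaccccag
The A box exon and this exon differ in what their removal does to the reading frame. Removal of a 127 nt exon shifts the frame, and of the 46 A box exons of 127 nt whose transcript encodes fingers, all 46 left an open reading frame without any finger. The shortened frames had a median of 23 codons, from 2 to 210. Removal of a 96 nt exon keeps the frame, and 14 of 14 coding exons of this length with fingers in the transcript kept every finger. Over the 282 coding ZNF exons whose transcript encodes fingers, 139 lost all of them on removal, 42 lost some, 100 kept all and 1 read as having more. Only 40 of the 323 translated exons encoded a finger themselves. These are counts on annotated transcripts with 1 exon removed at a time, and no protein was measured. Joint removal of the 2 ZNF92 exons, as in its called events below, shifts the frame and was not translated.

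By position in the transcript, 331 of the 624 ZNF exons were coding (53.0%, against 73.4% of the exons of other genes). A further 122 were partly coding (19.6% against 10.7%), 98 were 5′ UTR exons (15.7% against 5.11%), 42 belonged to non-coding transcripts, 7 were 3′ UTR exons and 24 were not matched. Coding exons thus made up a smaller share of the ZNF exons than of the exons of other genes, and exons in the 5′ UTR a larger one.

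The libraries differed in depth and in how many exons were never seen skipped. Junction reads summed over all events lay between 38613055 and 43929373 per library, and were higher in the second set. In this sum a read counts once for each event that uses its junction. The median tested ZNF event had 69 and 61 reads in the first set against 41 and 46 in the second. Over all tested events the median was also higher in the first set, at 222 and 199 reads against 157 and 171. Fewer than 20 reads were found for 9 and 31 ZNF events in the first set and for 185 and 138 in the second. The inclusion level is the fraction of transcripts that include the exon, computed from junction reads after division by the length of each form. A level of exactly 1 was recorded for 21.3% and 24.8% of ZNF events in the first set and for 31.6% and 49.7% in the second, where library 2 stood apart. For other genes the share was also highest in that library, at 54.9%, and at most 36.5% in the other libraries. Library 2 of the second set also had the most ZNF events at a level of exactly 0, 8.37% against 2.48% to 4.71% in the other libraries.

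**Figure D2:**
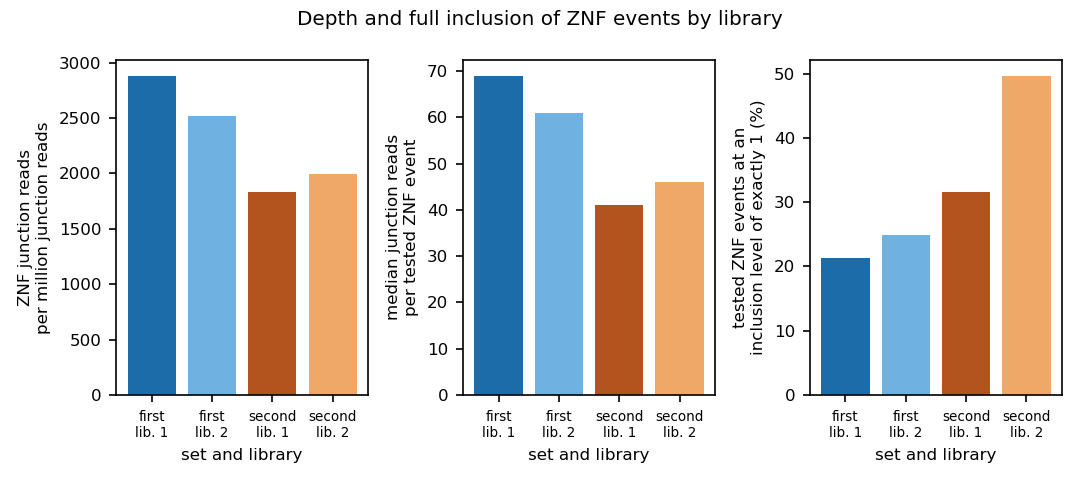
ZNF junction reads per 1000000 junction reads, both summed over events (left), median junction reads per tested ZNF event (middle) and percent of tested ZNF events at an inclusion level of exactly 1 (right) in each library (x axis; blue, first set; orange, second set). The first set has more reads on ZNF events, 69 and 61 at the median against 41 and 46. Over all tested events, not drawn, these medians are 222 and 199 against 157 and 171. Library 2 of the second set has the largest share at 1, 49.7%.

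ZNF exons had lower inclusion levels than the exons of other genes, a description of these libraries with no test. The median level over ZNF events was 0.917, against 0.983 over other genes. A level above 0.95 was found for 42.6% of ZNF events and 66.4% of the others, and a level from 0.05 to 0.95, called intermediate here, for 382 ZNF events (49.9%) and 24.2% of the others. Coding ZNF exons had a median level of 0.965, partly coding exons 0.707 and 5′ UTR exons 0.618. In the 5′ UTR, 62.2% of ZNF events were intermediate. The ZNF events also had fewer reads, with a median of 56 per library against 193 for other genes. The part of this depth difference in the levels was not tested.

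Several ZNF exons were mixed at high depth in every library. The deepest was the 183 nt exon of ZNF384 (ENSG00000126746.13, chromosome 12, 6781516 to 6781698), exon 8 of 11, in a transcription factor gene known from leukaemia fusions. Its levels were 0.293 and 0.270 in the first set against 0.284 and 0.250 in the second, and its removal takes 2 of 8 fingers with it (8 to 6). In a second, shallower trio this exon was at 1, 1, 0.953 and 1. The 48 nt exon of the same gene stood at 0.362, 0.249, 0.277 and 0.231. The 141 nt coding exon of ZNF410, a factor known for its control of CHD4, had levels of 0.344 and 0.406 against 0.331 and 0.360. In ZNF76, a relative of ZNF143, the 165 nt coding exon was at 0.550 and 0.561 against 0.543 and 0.515. The sets overlapped or nearly touched in all of these exons, and none was called: the authors' deposited table gave an FDR of 0.907 for the 48 nt exon and 1 for the others. The 5′ UTR exons of ZNF664 (93 nt) and ZNF639 (281 nt) were also mixed and uncalled, with ranges over the 4 libraries from 0.640 to 0.914 and from 0.670 to 0.892. In both, the lowest and the highest level were those of the 2 libraries of the second set.

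The comparison of the sets asked which exons change inclusion when SNORD89 is depleted. From the authors' deposited table, 58 of the 765 ZNF events (7.58%) were called, with an FDR below 0.05 and a difference between sets of 0.1 or more either way, against a background of 2.71% of all tested events. Events of intermediate level made up 49.9% of ZNF events and 24.2% of the others. This class is taken from the same libraries as the calls, and 1474 of the 1477 called events of all genes were in it. Among intermediate events, 15.2% of the ZNF events were called, against a background of 11%. With depth also matched, the gap was small: at 20 to under 50 reads, 42 of 222 intermediate ZNF events (18.9%) were called, against 17.6% for other genes. At 50 to under 100 reads the shares were 11.9% (13 of 109) and 13.6%, and at 100 reads or more 5.88% (3 of 51) and 4.57%. Among intermediate events, the called share of ZNF events was near that of other genes in each depth class, above it in 2 and below it in 1. The part of level and of depth in the called share was not tested.

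**Figure D3:**
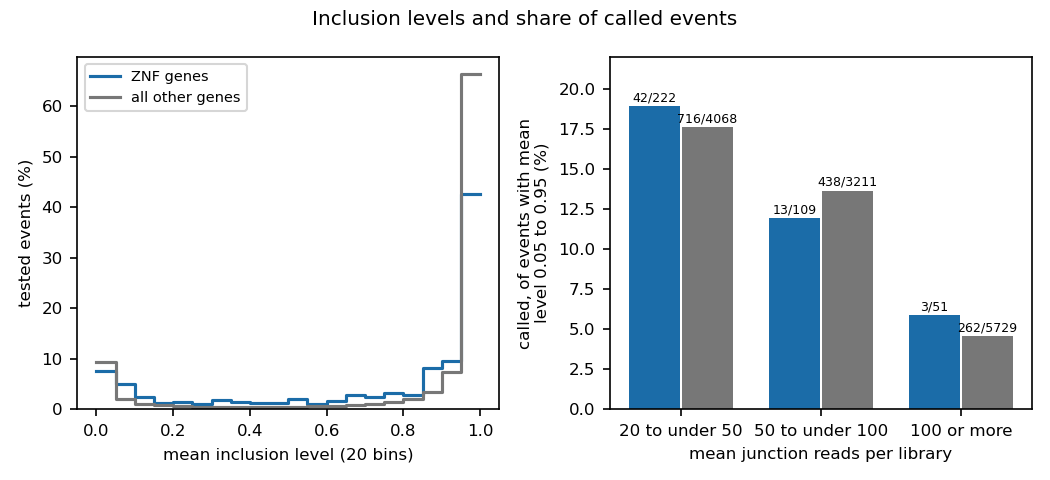
Left, percent of tested events (y axis) by mean inclusion level over the 4 libraries (x axis, 20 bins) for ZNF genes (blue) and all other genes (grey). Right, percent of intermediate events that were called (y axis) by mean junction reads per library (x axis), with called and total events above each bar; ZNF and other genes have bars of similar height in each class, 18.9% and 17.6% in the lowest.

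The called events went both ways. Inclusion was higher in the first set in 26 of them, beside a background of 1.34% of all tested events, and lower in 32, beside 1.37%. The higher calls made up 44.8% (95% Wilson interval 32.7% to 57.5%, with each event taken as independent), against 49.4% of all called events. By exon class, coding exons had 5 higher and 19 lower, partly coding exons 6 and 4, 5′ UTR exons 9 and 6, and exons of non-coding transcripts 4 and 2. Coding exons of other genes had 422 higher and 447 lower, and the difference between these splits was not tested. The 19 coding events rest on 17 distinct skipping junctions in 16 genes. Without library 1 of the first set 14 of the 19 still differed by 0.1 or more with the same sign, and without library 2 of that set 15 did.

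Events of 1 gene are not independent. The 58 events lay in 57 exons and 46 genes, and 18 of them shared 9 skipping junctions in pairs, in ZNF195, ZNF461, ZNF274, ZNF177, ZNF589, ZNF518B, ZNF354B, ZNF92 and ZNF3. An exon can be tested in several trios, and the levels below are those of the event named: 18 of the 57 exons had other tested events, and in each of the 18 at least 1 of these was not called. Called differences had a median size of 0.197, from 0.101 to 0.471. In 51 of the 58 called events every level of one set lay above every level of the other. Over all 765 ZNF events this was so in 195 (25.5%), near the background of 22.8%. Called events were shallow, with a median of 35.75 reads against 58.25 for uncalled ZNF events, and in 25 of them a library of the second set had fewer than 20 reads. Without library 2 of the second set, which had the most levels at exactly 0 and 1, 50 of the 58 still differed by 0.1 or more with the same sign. The part of depth and of this library in the calls was not tested otherwise.

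With the spread between libraries as the error, no ZNF event passed. The quasi-binomial model, adjusted over all tested events, called 0 ZNF events at an adjusted p under 0.05, and 1 event in all (background 0.00183%). The smallest adjusted p of a ZNF event was 0.877. At an unadjusted p under 0.05 it held 27 ZNF events (3.53%), beside a background of 2.82%. Among them were 19 of the 58 called ZNF events (32.8%), beside 38.2% of the called events of all genes. The count of 27 changed with the library left out. A set left with 1 library gives no spread, so the spread between libraries then comes from the other set alone. Without library 1 of the second set the model called 240 events in all, 1 of them a ZNF event, and without any other library at most 1 in all. The weighted limma fit also called 0 ZNF events, against a background of 0.235%, where 62 had an unadjusted p under 0.05 and the smallest adjusted p was 0.193. Between libraries of the second set, 38.7% of intermediate ZNF events differed by more than 0.2 in level, against 13.9% between libraries of the first set and 15.2% between the means of the sets. For other genes these shares were 21.8%, 7.67% and 7.66%. The authors' test and these models thus give different answers for the same events, and the called events below are given with the value of every library.

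ZNF92 had the called event with the lowest FDR and showed joint skipping of its A box exon and the exon after it. ZNF92 (ENSG00000146757.9) has 11 finger patterns, and its A box exon and the following exon, printed above, are exons 2 and 3 of 4 (chromosome 7, 64852815 to 64852941 and 64853719 to 64853814). A junction that joins exon 1 to exon 4 and passes over both had 25 and 10 reads in the first set against 0 and 0 in the second. The same reads serve as the skipping reads of both exons. The level of the A box exon against this junction was 0.538 and 0.699 in the first set (79 and 53 reads) against 1 and 1 in the second (22 and 30 reads). The sets did not overlap, which the rule for naming exons requires, and the second set had fewer reads. Per the authors' deposited table, the difference was -0.381 (FDR 6.36e-06), and the unadjusted p of the quasi-binomial model was 0.00947. For the 96 nt exon the authors' deposited table gave -0.43 (FDR 0.000312), from only 5 and 11 reads in the second set. When the A box exon alone was skipped, with exon 1 joined to exon 3, there were 7 and 1 skipping reads against 0 and 0, the levels were 0.896 and 0.973 against 1 and 1, and this event was not called. The 96 nt exon alone was hardly skipped, with a difference of -0.015 in the authors' deposited table. The skipping in ZNF92 was thus mostly of both exons at once, and it was seen in both libraries of the first set and neither of the second.

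A box exons as a group were called in both directions. The 79 events of exons with the A box pattern had a median level of 0.927, from 0.0659 in ZNF71 to 0.998, and 47 were intermediate. Of these events 6 were called (7.59%): 4 were lower in the first set (ZNF92, ZNF678, ZNF782 and ZNF274) and 2 higher (ZNF695 and ZNF586). That share was next to the 7.58% of all ZNF events and above the 2.71% of all tested events. The median level of the 79 events was 0.919 and 0.956 in the first set against 0.952 and 1 in the second. In ZNF678 the levels were 0.781 and 0.748 against 1 and 1, a difference of -0.236 (FDR 0.00236 in the authors' deposited table), with 16 and 23 reads in the second set. A second event of this exon was uncalled, at 0.902 and 1 against 1 and 1. ZNF695 was at 1 and 0.978 against 0.952 and 0.730, so that 1 library set the difference: without library 2 of the second set, the value of 0.148 fell to 0.0364. ZNF586 likewise had 1, 0.829 and 0.871 in 3 libraries and 0.0825 in library 2 of the second set, where it had 7 reads, and its difference of 0.438 became 0.0437 without that library. In ZNF274, a protein known to bind the 3′ ends of other ZNF genes and to recruit SETDB1, the called event had skipping reads in library 2 of the first set alone (7 reads, level 0.649), and the other 3 libraries were at 1. A deeper event of the same ZNF274 exon, with another skipping junction, was not called. It was at 0.791 and 1 against 1 and 0.917, so that the sets overlapped, with a difference of -0.063. ZNF782 was at 0.819 and 0.718 against 0.829 and 1, and its difference of -0.146 was -0.0953 without library 2 of the first set and -0.0607 without library 2 of the second. Among uncalled A box exons, ZNF10 (KOX1), whose KRAB domain is widely used as a fused repressor, stood at 1, 1 and 1 and, from 8 reads, 0.351 in library 2 of the second set. The lowest mean levels of an A box event were those of ZNF71, ZNF749 and ZNF620, at 0.0659, 0.300 and 0.323, and in these events the exon was mostly skipped in all 4 libraries. In another exon trio the A box exon of ZNF620 had a mean level of 0.983. ZNF10, ZNF71, ZNF749 and ZNF620 were singled out after their values were seen.

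**Figure D4:**
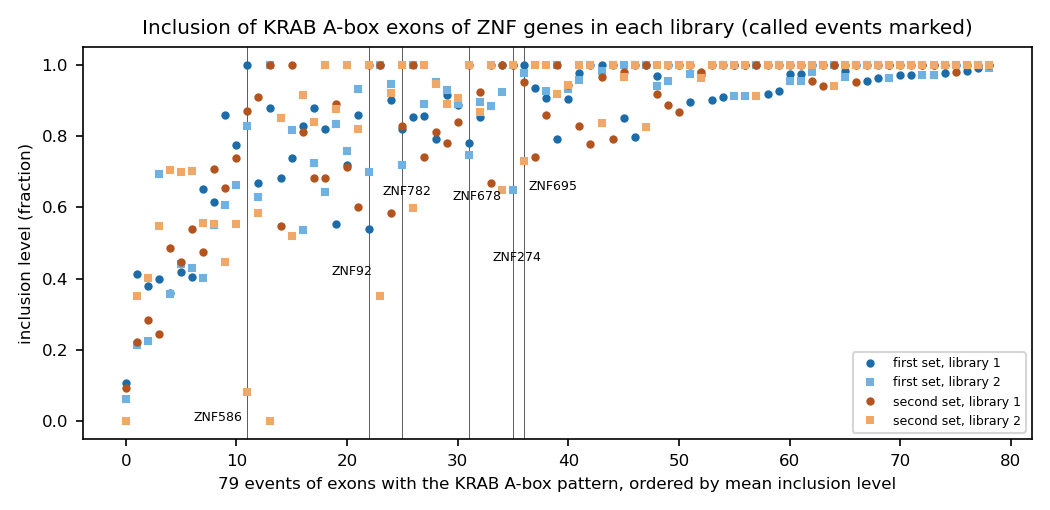
Inclusion level (y axis, fraction) in each of the 4 libraries (blue, first set; orange, second set; circles library 1, squares library 2) for the 79 events of exons with the KRAB A box pattern, ordered by mean level along the x axis. Vertical lines mark the 6 called events; those of ZNF92 and ZNF678 have both libraries of the second set at 1, and that of ZNF586 is set apart by 1 library.

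Some other coding ZNF exons had lower inclusion in the first set than in the second. Of the called coding events, 19 were lower and 5 higher in the first set. The higher ones without the A box pattern were in ZNF589 (243 nt, 0.313), ZNF688 (114 nt, 0.129) and ZNF461 (127 nt, 0.13). The last 2 differences became 0.0561 and 0 without library 2 of the second set. The largest absolute difference of the called events was that of ZNF655 (ENSG00000197343.6, chromosome 7, 99159511 to 99159596), whose protein is known as a partner of the signalling protein VAV1. Its 86 nt exon was at 0.290 and 0.505 in the first set against 0.736 and 1 in the second (-0.471, FDR 0.00187 in the authors' deposited table). The sets did not overlap, which the rule for naming exons requires, although the 2 libraries of each set also differed from each other by more than 0.2. The same ZNF655 exon had 3 other tested events, with differences of 0.02, -0.175 and -0.187, and none was called. The called event of the 146 nt exon of ZNF821 was at 0.639 and 0.858 against 0.928 and 1 (-0.216, FDR 0.00148 in the authors' deposited table). Its other 2 tested events had differences of 0.003 and -0.004 from similar or fewer reads. Removal of the exon would take the open frame from 412 to 62 codons and from 2 fingers to 0. Library 1 of the first set carried much of the called difference, which was -0.106 without it. ZNF197, a KRAB protein known to associate with the tumour suppressor VHL, had its 92 nt exon at 0.852 and 0.760 against 1 and 1, and removal would leave 0 of 22 fingers. In ZNF195 the called event of the 147 nt exon stood at 0.863 and 0.804 against 1 and 1, while its 4 other tested events were uncalled, with differences from -0.091 to 0.049. In ZNF44 the 144 nt exon was at 0.253 and 0.113 against 0.576 and 0.560. Both of these lengths keep the frame, with 9 of 9 and 14 of 14 fingers kept. The exon in ZNF44, with 11 to 42 reads per library, was mostly skipped in the first set and mostly included in the second.

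Exons outside the coding sequence, or only partly inside it, also differed. In ZNF621 an 81 nt exon of a non-coding transcript was at 0.0243 and 0.0401 in the first set against 0.245 and 0.564 in the second (-0.372, FDR 0.00042 in the authors' deposited table). It was almost always skipped in the first set and mixed in the second, and the difference was -0.212 without library 2 of the second set. The 102 nt 5′ UTR exon of ZNF585A was at 0.781 and 0.583 against 0.955 and 1 (-0.296, or -0.197 without library 2 of the first set). The partly coding 126 nt exon of ZNF362 was at 0.00976 and 0.0804 against 0.165 and 0.206. The partly coding 96 nt exon of ZNF74, a gene of the DiGeorge region, was at 0.102 and 0.0181 against 0.132 and 0.218, a difference of -0.115 that became -0.0729 without library 2 of the first set and -0.0720 without library 2 of the second. A second event of the ZNF74 exon was uncalled, with overlapping sets (difference -0.076, FDR 0.257 in the authors' deposited table). The exons of both genes were mostly skipped in every library in these events.

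Among exons more included in the first set, ZNF707 had the lowest unadjusted p in the quasi-binomial model (0.00686). Its 98 nt 5′ UTR exon was at 0.263 and 0.228 in the first set against 0.108 and 0.0339 in the second (0.174, FDR 9.07e-05 in the authors' deposited table). ZNF589, first described in blood stem cells, had a 3055 nt partly coding exon at 0.862 and 0.958 against 0.674 and 0.644, from 72 to 140 reads per library. The sets were apart in both of these exons, which the rule for naming exons requires. In ZNF354B the exons of 124 nt and 120 nt share a start and their skipping reads, which numbered 0 and 0 in the first set against 7 and 8 in the second. The longer one was at 1 and 1 against 0.757 and 0.672. In ZNF644, a protein known to act with the histone methyltransferases G9a and GLP, a 61 nt exon was at 1 and 1 against 0.874 and 0.814. In these events of both genes inclusion was full in the first set and partial in the second. The deepest event of the 120 nt exon of ZNF354B, with another skipping junction, did not share this: it was at 1 and 0.982 against 1 and 1. A 323 nt exon of ZNF786 was at 0.562 and 0.391 against 0.212 and 0.210, and a 186 nt exon of ZNF195 at 0.119 and 0.137 against 0 and 0. A second event of that ZNF195 exon, at 0.184 and 0.05 against 0.0145 and 0.0444, was uncalled. Under the symbol ZNF177, exons of 63 nt and 222 nt that share a start and their skipping reads belonged to the identifier ENSG00000270011.2, which GENCODE release 29 names ZNF559-ZNF177, a transcript that reads through both genes. The 63 nt exon was at 0.808 and 0.600 against 0.330 and 0.190, a difference of 0.444 (FDR 0.00793 in the authors' deposited table). Few reads lay behind it, 16 to 17 in the second set. The difference of the 222 nt exon, 0.421, was 0.187 without library 1 of the first set.

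**Figure D5:**
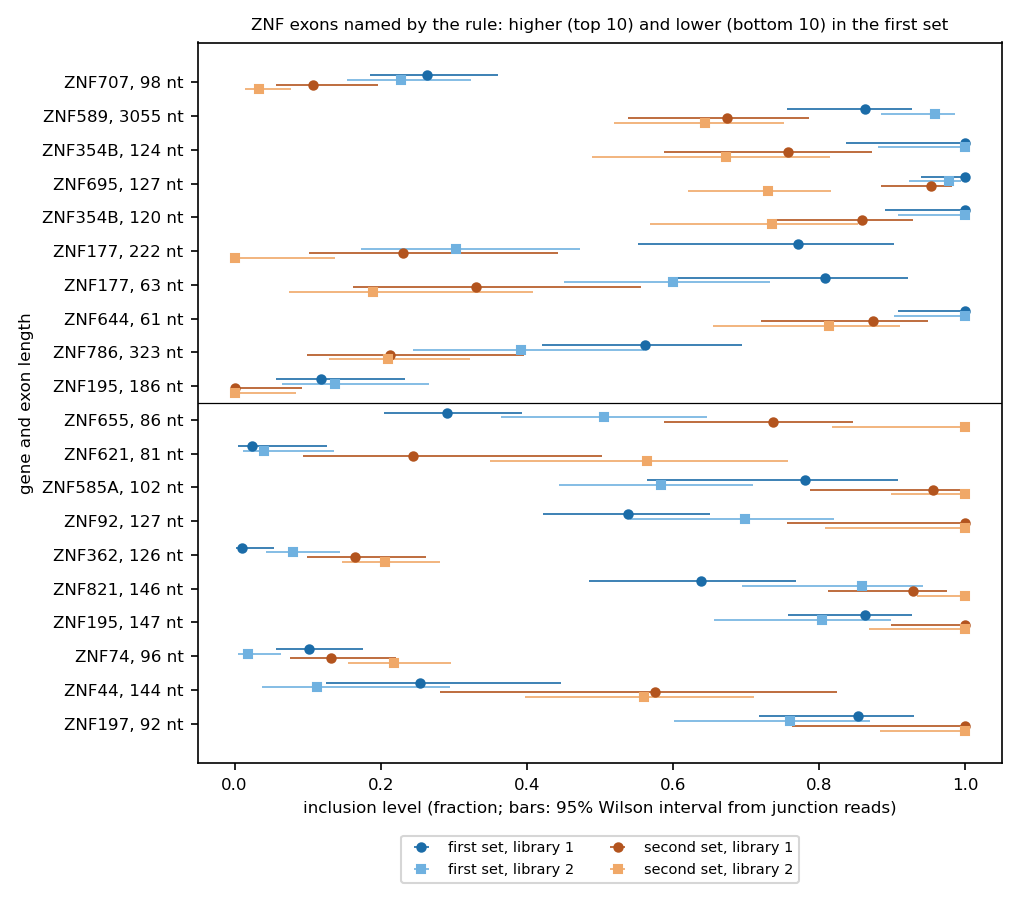
Inclusion level (x axis, fraction) of 20 called ZNF exons whose sets do not overlap, the 10 higher (top) and 10 lower (bottom) in the first set by the lowest quasi-binomial p. Blue marks the first set and orange the second, circles library 1 and squares library 2, and bars are 95% Wilson intervals from junction reads; the interval of a library at 1 reaches well below 1 where reads are few, as in ZNF92.

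The 3 genes with most tested events had 0 to 3 called events each, beside called shares of 7.58% of ZNF events and 2.71% of all tested events. Differences between these genes were not tested. ZNF195, a multi-finger gene on chromosome 11, had 24 tested events over 13 exons, with mean levels from 0.0160 to 0.995, and 3 were called. The called events of its 186 nt and 284 nt exons share their skipping reads. ZNF346, which encodes a zinc finger protein that binds double-stranded RNA, had 20 events over 9 exons, and ZNF692 had 18 over 14, with 0 called in each by the authors' deposited table. At an unadjusted p under 0.05 that table held 2 events of ZNF346 and 1 of ZNF692, beside 14.3% of all tested events. The quasi-binomial model held 1 and 0, beside 2.82%. In ZNF346 every difference lay between -0.067 and 0.015.

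Relatives and partners of the ZNF proteins were read from lists. The other C2H2 families (ZFP, ZSCAN, ZKSCAN, ZBTB, KLF and SP genes) had 151 tested events in 48 genes, of which 11 were called (7.28%, beside 2.71% of all tested events), 6 higher and 5 lower in the first set. Their share of intermediate events was 41.7%, and 17.5% of those were called, beside 11% of all intermediate events. The 20 genes of the KRAB co-repressor list, all with tested events, included TRIM28, SETDB1, the heterochromatin proteins CBX1, CBX3 and CBX5, CHD4 and MORC2. They had 141 events with a median level of 0.995. The authors' deposited table called 0 of them, with 11 at an unadjusted p under 0.05, beside 14.3% of all tested events. The quasi-binomial model also called 0, with 5 at an unadjusted p under 0.05, beside 2.82% of all tested events. The weighted limma fit called 1 (adjusted p 0.0241), in TRIM28 itself, beside 0.235% of all tested events. This 113 nt coding exon of TRIM28 was at 0.869 and 0.873 in the first set against 0.826 and 0.786 in the second, a difference of 0.065 that is under the size asked of a call (FDR 0.00574 in the authors' deposited table). Exons of the co-repressor genes were deep, at a median of 359.5 reads, and 10.6% of their events were intermediate.

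Summed over skipped exon events, junction reads on ZNF genes were a larger share of the total in the first set than in the second. In both sums a read counts once for each event that uses its junction. Over all 1215 ZNF events at any depth, they numbered 2883 and 2519 per 1000000 junction reads in the first set against 1836 and 1997 in the second. The ratio between the means was 1.41, or 1.28 when the 100 deepest genes were left out of the total. Of the 332 ZNF gene identifiers at any depth, 217 (65.4%) were higher on this scale in both libraries of the first set than in both of the second, beside a background of 57.2% of all genes. The reverse held for 12 (3.61%), beside 12.7%. Among the tested events alone, where a shallow gene passes the read minimum through the set in which it is deeper, the counts were 166 of 243 (68.3%), beside 60.3%, and 10 (4.12%), beside 13.9%. These are reads on the junctions of skipped exon events, given as a description with no test, and not expression levels.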

How the data were processed

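PolyA RNA of HEK293T cells was sequenced as read pairs per the labels' protocols. The authors deposited 1 table of skipped exons in the layout of rMATS, per the file headers; the submitters' processing notes name hg19, cutadapt and STAR, and versions are not given in the sources used here. The table holds inclusion and skipping junction counts and inclusion levels (fractions) per library, the authors' difference (a score: mean of the first set minus mean of the second), their p-value and its FDR, all as deposited. Levels recomputed from the counts differed by at most 0.0005.

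Events with a mean of at least 20 reads were tested. A call is a deposited FDR under 0.05 with an absolute difference of at least 0.1. Own tests were a quasi-binomial model per event, with dispersion moderated by squeezeVar of limma 3.58.1 (R 4.3.3) and never under 1, and limma with precision weights on log2((inclusion + 0.5)/(skipping + 0.5)), both adjusted by Benjamini-Hochberg over all 54503 tested events and tested on simulated data. Intervals are 95% Wilson intervals and cover counting error only.

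GENCODE release 29 (GRCh38) gave annotation and exon sequence: 739 ZNF events (96.6%) matched by exon length and both intron lengths within the gene. Coordinates are those of the table, 1-based, and none was converted. Fingers and the A box pattern were counted in translated GENCODE transcripts, since no protein table was given. Named exons are called exons with sets that do not overlap, the first 10 in each direction by quasi-binomial p; the 6 deepest with a mean level from 0.2 to 0.8; the 3 genes with most events; and any co-repressor gene called. The members and lists were chosen with earlier results of these data known. Alternatives were other read, FDR and difference thresholds, 1 event per exon, only genes with 2 or more fingers, and leaving out each library.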

Additional observations from a re-analysis of the deposited data

How the results depend on the processing

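The count of 58 called ZNF events became 92 with a minimum of 10 reads, 116 with none and 16 with a minimum of 50. It became 28 with a difference of at least 0.2 and 33 with an FDR under 0.01. With each library left out in turn, 48 to 57 of the 58 still differed by 0.1 or more with the same sign. The deposited FDR was kept and uncalled events could not enter, so this count could only fall. Among the events that still differed, the share higher in the first set ranged from 42.0% to 52.1%. The quasi-binomial model called 0 to 1 ZNF events when a library was left out. The 1 was a 142 nt 5′ UTR exon of ZNF107 (adjusted p 0.0494 without library 1 of the second set, 0.877 with all; 0.0494 to 1 over the alternatives), at 0.104 and 0.146 against 0 and 1. The events called in co-repressor and related families numbered 11, and 4 with a minimum of 50 reads. No called event changed sign when a library was left out. In 51 of the 58 the sets did not overlap, so a change of sign was not possible there. The difference became 0 in 1 and 3 called events without library 1 and library 2 of the first set. It became 0 in 0 and 2 without library 1 and library 2 of the second. Uncalled differences near 0 did change sign. Of 130 values for 26 named exons, 111 moved by less than their error and 19 by more. That tally does not measure stability. In ZNF695 the fall from 0.148 to 0.0364 without library 2 of the second set counted as less than the error. In the 124 nt exon of ZNF354B the move from 0.285 to 0.328 without library 1 of that set counted as more. Without the correction for form length, the difference was 0.0904 in ZNF695 and -0.0917 in the 147 nt exon of ZNF195, and in ZNF92 it was -0.253. The rule on 2 or more fingers, the leave-outs of coding calls and the junction read ratio over tested events only (1.38 against 1.41) or gene counts at any depth were chosen after seeing the data, the first in place of a planned protein table. No paired analysis was possible because the columns carry no replicate numbers. Depth limits the second set most, where 185 and 138 ZNF events had fewer than 20 reads.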

Other observations

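Of the 450 ZNF events under the read minimum, 60 had an FDR under 0.05 in the authors' deposited table, and 58 of these also differed by at least 0.1. These events have fewer than 20 reads per library on average and were not read further.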
